A study of Mus musculus with 29 samples.

Results

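The regions described here are 712 stretches of the mouse genome that carried a peak of H3K9ac in Tbr2-negative nuclei, carried none in Tbr2-positive nuclei, and lay away from gene ends. The peaks of the 7 vehicle libraries were merged wherever they shared at least 1 base, which gave 180672 regions, of which 154495 lay more than 1 kb from either end of any protein-coding gene. A region was kept when all 4 Tbr2-negative vehicle libraries had a peak in it and none of the 3 Tbr2-positive vehicle libraries had one, which held for 712 (0.461%) of the regions away from gene ends. The regions were thus chosen by their vehicle peaks, which are given as a description. The TSA libraries and the RNA libraries took no part in the choice. The same rule turned round gave 957 Tbr2-positive-only regions (3 of 3 positive, 0 of 4 negative), and 7892 regions away from gene ends had a peak in all 7 vehicle libraries. Both sets served for comparison.

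H3K9ac is the acetylation of a lysine in the tail of histone H3. Acetyltransferases add it and histone deacetylases remove it, and it is known from the start sites of active genes and from active enhancers, the regulatory stretches that can lie far from the gene they act on. Tbr2, the product of Eomes, is a T-box transcription factor of the basal (intermediate) progenitors, which divide below the ventricular surface of the embryonic cortex and give rise to excitatory neurons. Nuclei without Tbr2 in such tissue can come from radial glia, excitatory neurons of all layers, inhibitory interneurons that migrate in from the ventral forebrain, and non-neural cells. TSA (trichostatin A) inhibits the zinc-dependent histone deacetylases.

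All libraries came from mouse cortex at E16.5 (embryonic day), divided by Tbr2 into a positive and a negative fraction, from tissue that received vehicle or TSA. No genotype other than the Tbr2 status is given, and the dose, route and duration of TSA, and the pooling of embryos, are not stated in the labels. H3K9ac was profiled in 4 Tbr2-negative vehicle, 3 Tbr2-positive vehicle, 4 Tbr2-negative TSA and 4 Tbr2-positive TSA libraries, and RNA in 3 vehicle and 2 TSA libraries of each fraction. The libraries held 15173175 to 30267202 ChIP tags and 31823 to 82164 peaks, and the RNA libraries 18567111 to 26282652 counts. The Tbr2-positive TSA libraries had the fewest peaks (31823 to 40053), and Tbr2-negative TSA library 4 the fewest tags. Peaks were called against 1 input library per group, so that the group and its input cannot be told apart. Nothing states that replicates came from separate animals, so the p-values reflect how far these libraries vary, which may be technical. The labels describe the RNA as taken from whole tissue, while Eomes stood at 22.0, 13.9 and 18.2 CPM (counts scaled to the library total) in the negative and 410, 370 and 548 CPM in the positive vehicle libraries, with no overlap. The Tbr2-positive TSA libraries held 391 and 462 CPM and the negative ones 14.1 and 8.23 CPM. In bulk libraries, fewer cells of a type and less RNA or acetylation per cell cannot be told apart.

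The median width of the regions was 531 bp (218 to 3461 bp), against 194 bp for all regions away from gene ends, 1032 bp for regions with a peak in all 7 libraries and 400 bp for Tbr2-positive-only regions. The median −log10 q of their peaks, the score by which the peak caller expresses confidence within a library, was 4.93, 4.83, 5.62 and 4.99 in the 4 Tbr2-negative vehicle libraries, against 12.2, 13.04, 13.96 and 12.2 at regions with a peak in all 7. Of the 712 regions, 433 (60.8%) lay inside a protein-coding gene, against 67.6% of all regions away from gene ends. The share was 56.0% for regions with a peak in all 7 libraries and 55.0% for Tbr2-positive-only regions. Among all regions away from gene ends, 57905 had a peak in 1 negative library only and 47501 in 1 positive library only. The median distance to the nearest gene end was 18356 bp (12525 bp over all), 189 regions (26.5%, against 26.1%) lay between 1 and 5 kb, and 132 (18.5%) beyond 100 kb. They were found on 20 chromosomes, most often on chromosome 2 (74 or 10.4%, against 8.84% of all) and chromosome 11 (64 or 8.99%, against 8.53%). All coordinates are of the mm10 build.

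The strongest regions were ranked by the lowest −log10 q over the 4 Tbr2-negative vehicle libraries. The first, chr12:117153926-117156469, lay inside Ptprn2, which encodes a protein of dense-core vesicles, with −log10 q of 24.1, 20.7, 17.1 and 21.9 in vehicle and 16.9, 23.6, 21.9 and 12.9 under TSA. The next, chr11:7211890-7213603, lay inside Igfbp3, which encodes a binding protein of insulin-like growth factors, with 24.1, 16.2, 20.9 and 17.5 in vehicle and 22.6, 17.8, 26.8 and 30.3 under TSA. Both kept a peak in 4 of 4 Tbr2-negative TSA libraries and had none in any Tbr2-positive TSA library. The same pattern held for the other 8 of the 10 strongest, whose nearest genes were Topaz1, Gabra5, Tmem132e, Rbfox3, Rapgef5, Ythdf3, Hes1 and Myof. The nearest gene can be distant: the region near Ythdf3, which encodes a reader of methylated RNA, lay 600039 bp from its end, and that near Hes1, the Notch-induced repressor of radial glia, lay 55967 bp away.

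Regions at the limits of the rule give its sharpness. Just inside the distance limit were regions near Gpr137 (1001 bp), Kcng2 (1013 bp) and Arntl2 (1024 bp), and just outside were regions near Akp3 (989 bp), Dlk1 (960 bp) and Prdm12 (918 bp), all 6 with a peak in 4 of 4 Tbr2-negative TSA libraries. Those near Gpr137, Kcng2 and Arntl2 also had a peak in 2, 1 and 2 Tbr2-positive TSA libraries, while those just outside had none. Without the distance limit 887 regions had 4 of 4 negative and 0 of 3 positive peaks, of which 175 lay within 1 kb of a gene end. Among regions away from gene ends, 1715 had peaks in 3 of 4 negative and no positive library, and 769 in all 4 negative and 1 positive library, so regions that missed by 1 library outnumbered those that met the rule.

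Few of the regions lay over an annotated start site. A window from 250 bases before to 50 bases after a RefSeq start was overlapped by 38 of the 712 regions (5.34%), against 22.9% of regions with a peak in all 7 libraries and 1.88% of Tbr2-positive-only regions. For 17 of them (2.39%) the start belonged to the gene that held or neighboured the region. As the regions lie away from the outermost gene ends, these are inner, alternative starts. The 250 bases before 4 of these starts are shown because they are the places where the regions can be tied to a transcript of a named gene. Gabra5 (a subunit of the GABA-A receptor), Rapgef5 (an exchange factor for Rap GTPases) and Ppp2r2c (a regulatory subunit of protein phosphatase PP2A) had the strongest regions covering at least 200 of the 250 bases, and Celf3 (a neuronal RNA-binding protein) was added after its match was seen. The sequences are from RefSeq, build GRCm38.p6, 5′ to 3′ on the strand of the gene. Capitals mark CAGATG, the E-box bound by proneural factors, or its reverse complement.
Gabra5: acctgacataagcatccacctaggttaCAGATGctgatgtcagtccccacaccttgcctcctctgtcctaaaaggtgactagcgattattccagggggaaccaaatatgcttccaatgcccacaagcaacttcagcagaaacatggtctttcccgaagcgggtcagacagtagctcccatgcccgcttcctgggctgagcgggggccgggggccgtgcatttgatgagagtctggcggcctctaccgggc
Rapgef5: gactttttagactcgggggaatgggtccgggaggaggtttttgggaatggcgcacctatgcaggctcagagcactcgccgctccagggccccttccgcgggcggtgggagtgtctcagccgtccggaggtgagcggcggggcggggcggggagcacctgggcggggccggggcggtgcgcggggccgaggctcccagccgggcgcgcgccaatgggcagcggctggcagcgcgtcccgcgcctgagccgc
Ppp2r2c: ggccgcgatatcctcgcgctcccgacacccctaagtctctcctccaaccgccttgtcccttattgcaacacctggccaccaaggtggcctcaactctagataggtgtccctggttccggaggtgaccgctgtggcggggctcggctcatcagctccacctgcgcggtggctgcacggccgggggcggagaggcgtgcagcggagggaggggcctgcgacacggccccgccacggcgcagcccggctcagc
Celf3: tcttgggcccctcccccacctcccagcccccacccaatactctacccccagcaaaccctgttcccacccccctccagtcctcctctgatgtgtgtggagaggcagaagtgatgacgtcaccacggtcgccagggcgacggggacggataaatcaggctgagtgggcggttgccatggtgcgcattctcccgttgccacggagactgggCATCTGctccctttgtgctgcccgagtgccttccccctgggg

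The Gabra5 sequence lies at chr7:57510060-57510309 on the minus strand, and the region chr7:57508837-57510259 covered 200 of its bases. The Rapgef5 sequence, chr12:117533678-117533927 on the plus strand, lay wholly inside its region, and 227 bases of the Ppp2r2c sequence (chr5:36868260-36868509, plus strand) and 49 bases of the Celf3 sequence (chr3:94484108-94484357, plus strand) were covered. Rapgef5 was at 74.8% GC with 30 CpG and Ppp2r2c at 69.6% with 23 CpG, whereas Gabra5 was at 56.4% with 9 CpG. Over the 17 windows the median GC content was 61.6% and the median number of CpG 10, against 52.4% and 6 over all 32807 promoter windows of the same length. Whole windows were read, although the region covered only 2 bases of that of Phc2 and 0 of that of Tmprss2. CAGATG was found on either strand in 5 of the 17 windows and in 14.5% of all. Only the matches of Celf3 and Thsd4 lay in bases covered by the region, while those of Gabra5, Phc2 and Catsperg1 lay outside it. The Sox motif AACAAAG was found in 1 of 17 (5.03% of all) and the AP-1 motif TGACTCA in 1 of 17 (4.47% of all), both outside the bases covered by the region. TAATTA (homeodomain), AGGTGTGA (T-box), the Mef2 motif and the palindromic Nfi motif were in none of the 17, and in 4.85%, 1.12%, 3.20% and 0.0366% of all. A match is a match of letters and does not show binding. At the outermost ends of Rapgef5 and Ppp2r2c no vehicle library of either fraction had a peak, while the ends of Gabra5 and Celf3 had one in all 7.

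Whether the regions kept their peaks when deacetylases were inhibited was read in the 8 TSA libraries. In the Tbr2-negative TSA libraries 493, 525, 534 and 379 of the 712 regions had a peak, that is 69.2%, 73.7%, 75% and 53.2% (67.8% ± 10.02, SD, n = 4). In the Tbr2-positive TSA libraries 23, 43, 17 and 17 had one, that is 3.23%, 6.04%, 2.39% and 2.39% (3.51% ± 1.73, SD, n = 4). The groups did not overlap, and the lowest Tbr2-negative library stood far above the highest Tbr2-positive one. Library 4 of the Tbr2-negative TSA group, the lowest, was also the library with the fewest tags (15173175), and it had the lowest share at regions with a peak in all 7 vehicle libraries as well (88.5%, against 95.2% to 95.8% in the other 3). Within each lane number that the file names give, the order was the same: 69.2% against 3.23% and 6.04% in lane 1, 73.7% and 75% against 2.39% in lane 2, and 53.2% against 2.39% in lane 3.

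**Figure D1:**
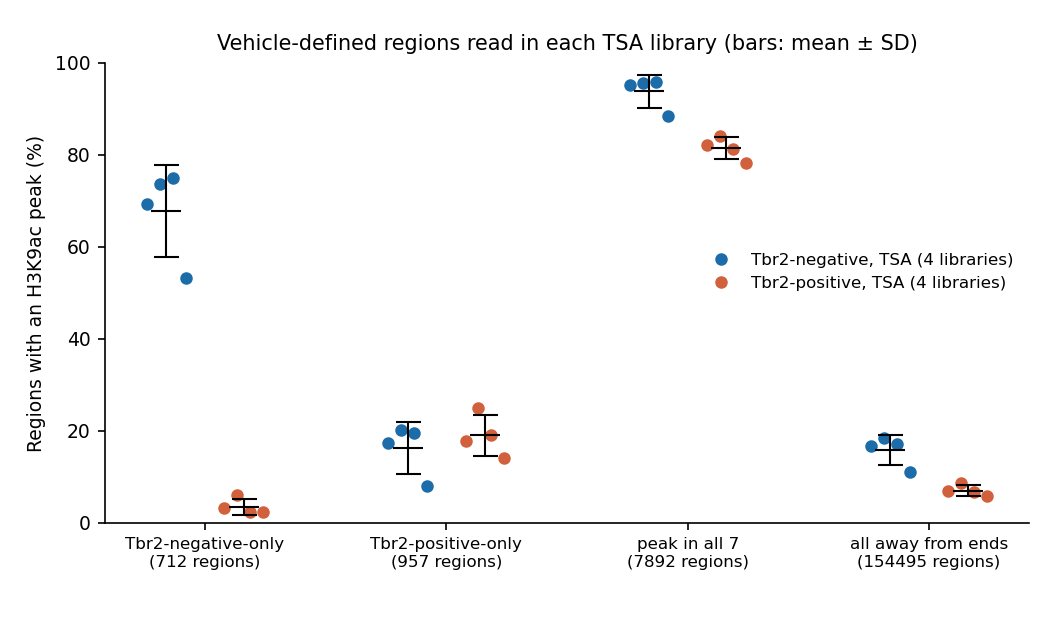
Share of regions with an H3K9ac peak (y axis, %) in each TSA library (points) for 4 sets of regions defined in vehicle (x axis), with Tbr2-negative libraries in blue, Tbr2-positive in orange, and bars for the mean ± SD of 4 libraries. The Tbr2-negative-only regions lie at 53.2% to 75% in blue and 2.39% to 6.04% in orange, while the regions with a peak in all 7 vehicle libraries lie above 78% in both.

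The comparison sets behaved otherwise in the same 8 libraries. Regions with a peak in all 7 vehicle libraries had one in 88.5% to 95.8% of cases in the Tbr2-negative and in 78.4% to 84.1% in the Tbr2-positive TSA libraries. The Tbr2-positive-only regions had a peak in 17.9%, 24.97%, 19.02% and 14.2% of cases in the Tbr2-positive TSA libraries and in 17.5%, 20.2%, 19.5% and 7.94% in the Tbr2-negative ones, so that the 2 fractions overlapped there. Of all 154495 regions away from gene ends, 11.1% to 18.5% had a peak in the Tbr2-negative and 5.95% to 8.605% in the Tbr2-positive TSA libraries. The difference between the sets was not tested.

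The size of the retained share depended on how peaks were counted. With each TSA list held to its 31823 strongest peaks, the Tbr2-negative shares were 37.9%, 18.5%, 41.3% and 32.9% and the Tbr2-positive shares 2.53%, 3.51%, 1.83% and 2.39%, which still did not overlap, and regions with a peak in all 7 vehicle libraries stood at 68.1% to 82.6% and 75.6% to 79.1%. When a TSA peak had to cover at least 50% of the region, the mean shares were 37.5% and 1.02%.

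Counted by region, 266 of the 712 (37.4%) had a peak in all 4 Tbr2-negative TSA libraries, and 56 had a peak in none of them. A peak in all 4 was found at 5.99% of all regions away from gene ends. The share was 83.5% for regions with a peak in all 7 vehicle libraries and 0.94% for Tbr2-positive-only regions. A peak in all 4 Tbr2-negative and no Tbr2-positive TSA library was found at 231 regions (32.4%), against 0.996% of all regions away from gene ends, 2.42% of those with a peak in all 7 vehicle libraries and 0.418% of the Tbr2-positive-only ones. The opposite pattern, all 4 Tbr2-positive and no Tbr2-negative, was found at 0 of 712 (0.0343% of all). Fisher's exact test of 4 against 4 libraries cannot give a p below 0.0286 for a region. At that value stood the same 231 regions, and after Benjamini-Hochberg adjustment over all regions none passed (smallest adjusted p = 1).

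**Figure D2:**
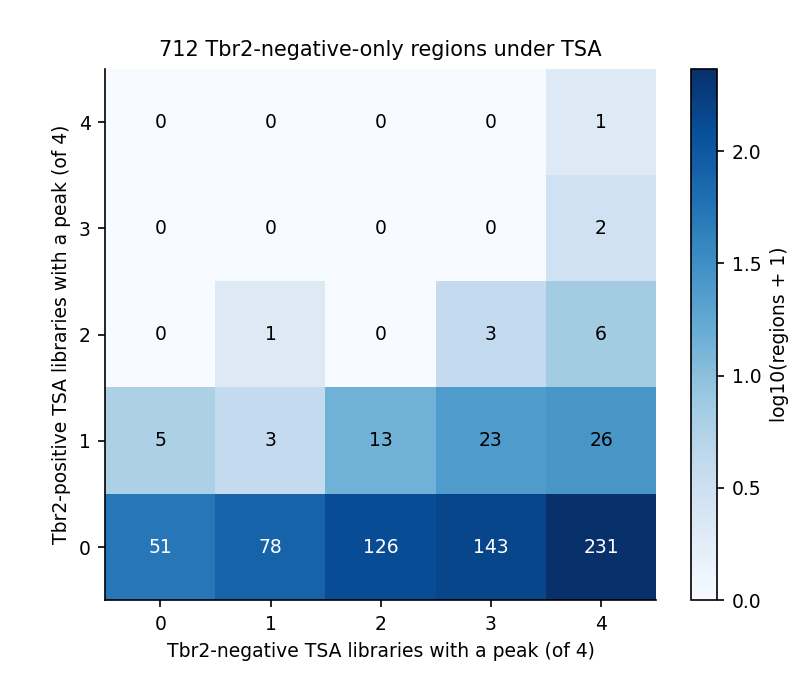
Number of Tbr2-negative-only regions (figures in the cells, colour on a log10 scale) by how many of 4 Tbr2-negative (x axis) and 4 Tbr2-positive (y axis) TSA libraries had a peak. Most of the 712 lie in the bottom row, with 231 at 4 negative and 0 positive libraries and 51 with no peak in any TSA library.

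At least 1 Tbr2-positive TSA library had a peak at 83 regions (11.7%), a share near the 12.6% of all regions away from gene ends. At 70 of these it was a single library, at 10 it was 2, at 2 it was 3 and at 1 it was all 4. The 3 regions with 3 or 4, named after their values were seen, lay near Usp46, which encodes a deubiquitinase, inside Ldlrad4, a negative regulator of TGF-beta signalling, and near Gpr151, an orphan receptor of the habenula. All 3 also had a peak in 4 of 4 Tbr2-negative TSA libraries.

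Regions with stronger vehicle peaks kept them more often. In 4 groups of 178 regions by the lowest −log10 q over the 4 Tbr2-negative vehicle libraries, from weakest to strongest, 36, 43, 62 and 125 regions (20.2%, 24.2%, 34.8% and 70.2%) had a peak in all 4 Tbr2-negative TSA libraries. No Tbr2-negative TSA library had a peak at 24, 17, 14 and 1 of them. A peak in at least 1 Tbr2-positive TSA library was found at 14.6%, 7.87%, 10.1% and 14.04%, with no order by strength.

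**Figure D3:**
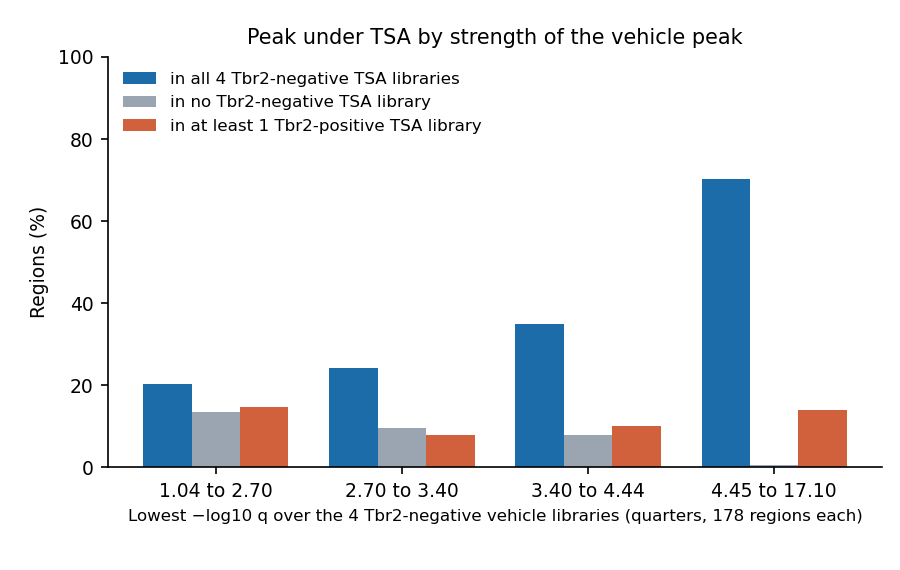
Share of regions (y axis, %) in 4 equal groups by vehicle peak strength (x axis, lowest −log10 q over the 4 Tbr2-negative vehicle libraries) that had a peak in all 4 Tbr2-negative TSA libraries (blue), in none of them (grey) or in at least 1 Tbr2-positive TSA library (orange). The blue bars go from 20.2% to 70.2%, while the orange bars stay between 7.87% and 14.6%.

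The share in a vehicle library left out of the choice was set beside these shares. Peaks of that library had still helped to draw the merged regions, unlike those of the TSA libraries. The shares of vehicle and TSA libraries are therefore not on equal terms. Regions were chosen again without 1 Tbr2-negative vehicle library (1029 to 1306 regions), a check added after the data were seen. The library left out had a peak at 54.5%, 69.2%, 69.1% and 59.4% of them, and the 4 Tbr2-negative TSA libraries at 40.5% to 65.2%. Over the 4 choices TSA libraries 1 to 3 lay between 57.5% and 65.2%, within the range of the left-out vehicle libraries. When 1 Tbr2-positive vehicle library was left out, that library had a peak at 30.2%, 25.9% and 22.9% of the regions, above the 3.64% to 9.85% of the Tbr2-positive TSA libraries. The left-out vehicle libraries held 61487 to 82164 peaks and the TSA libraries 31823 to 40053, and the part of this in the result was not tested.

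The 712 regions had 619 nearest genes, where the nearest gene is the one that holds the region or else has the nearest end. A single region was assigned to 548 of them, 2 regions to 54, and 3 or more to 17. The 834 nearest genes of Tbr2-positive-only regions included 74 of them, 11.95% of the 619 and 8.87% of the 834. The ends of these genes were mostly acetylated in both fractions: 434 of 619 (70.1%) had a peak within 1 kb of an end in all 7 vehicle libraries, close to the 71.1% among nearest genes of all regions away from gene ends. The pattern of the regions themselves, 4 of 4 negative and 0 of 3 positive libraries, was found at the ends of 5 genes (0.808%, against 0.536%).

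Of the 619 genes 610 were matched to a row of counts and 543 had enough counts to be tested. RNA of 187 (34.4%) was higher in the Tbr2-negative vehicle libraries and RNA of 48 (8.84%) was lower (edgeR's quasi-likelihood test, Benjamini-Hochberg adjusted p below 0.05 over 20078 genes), while 308 passed in neither direction. Of all genes tested 11.5% were higher and 9.96% lower. Of genes nearest any region away from gene ends 14.1% were higher and 12.9% lower, and of those nearest Tbr2-positive-only regions 16.4% and 24.4%. The median log2 fold change, Tbr2-negative minus Tbr2-positive, was 0.46 for the 543 genes, 0.05 over all genes and −0.08 for the genes nearest Tbr2-positive-only regions. The nearest gene need not be the gene a region acts on.

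**Figure D4:**
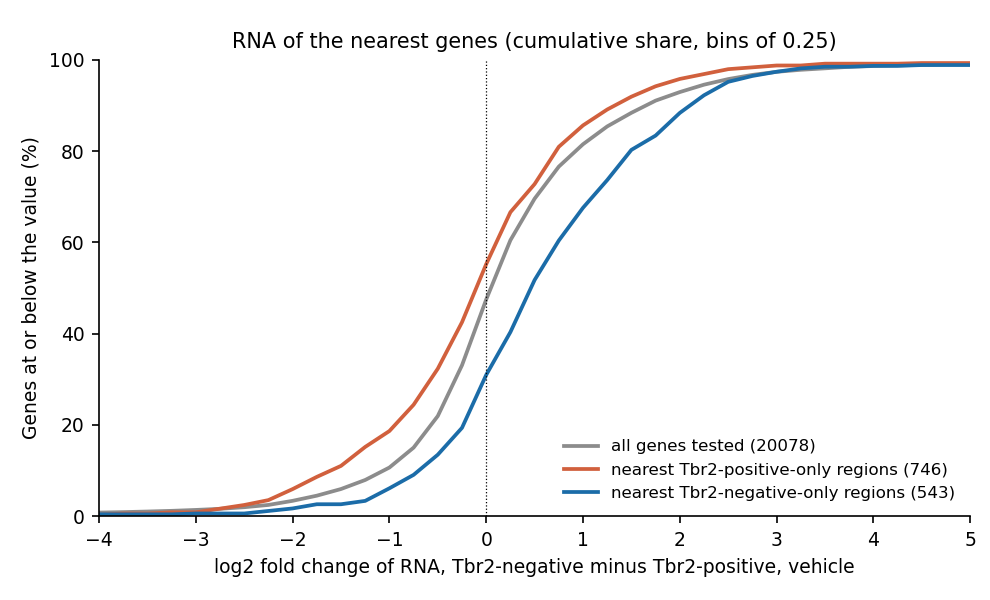
Cumulative share of genes (y axis, %) by log2 fold change of RNA between Tbr2-negative and Tbr2-positive vehicle libraries (x axis, positive is higher in Tbr2-negative), for genes nearest Tbr2-negative-only regions (blue), nearest Tbr2-positive-only regions (orange) and all genes tested (grey). The blue curve lies to the right of the grey one, with medians of 0.46 and 0.05.

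The share of higher genes varied with the kind of region. Among genes with a region inside them 144 of 354 (40.7%) were higher and 31 lower. Among genes with a region outside any gene 48 of 202 (23.8%) were higher and 19 lower. The share did not fall with distance among these outside regions. Within 100 kb 28 of 147 genes (19.05%) were higher and 13 lower, and beyond 100 kb 20 of 59 (33.9%) and 8 lower. Genes nearest all regions away from gene ends were not split in this way. Where a region kept its peak in all 4 Tbr2-negative TSA libraries the nearest gene was higher in 93 of 217 cases (42.9%) and lower in 12, and where it kept it in 1 or none, in 26 of 119 (21.8%) and lower in 16. Of genes with 2 or more regions 35 of 67 (52.2%) were higher and 5 lower. These are counts beside each other, and a gene can stand in more than 1 of them.

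Genes of inhibitory interneurons formed the list with the largest share near the regions among the 12 lists examined. Of 24 such genes 10 (41.7%) were the nearest gene of 16 regions, against 619 of 21887 protein-coding genes (2.83%), and none was nearest a Tbr2-positive-only region. They were Gad1 and Gad2 (enzymes of GABA synthesis), Dlx1 and Dlx6 (homeodomain factors of the ventral forebrain), Lhx6, Lhx8 and Nkx2-1 (factors of the medial ganglionic eminence), Sp9 (a zinc finger factor of interneuron precursors), Nr2f2 (a nuclear receptor of the caudal eminence) and Nxph1 (a secreted ligand of neurexins). RNA of 8 of the 10 was higher in Tbr2-negative vehicle libraries and none was lower. Over the list as a whole 19 of 24 genes were higher and 2 lower. Its summed RNA lay between 1298 and 1568 CPM in the negative and between 444 and 600 CPM in the positive vehicle libraries. Under TSA the sums were higher in the negative libraries, at 2266 to 2497 CPM, and stood at 586 to 646 CPM in the positive ones. The part of the share of interneurons in the acetylation was not tested.

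Of the 16 regions near interneuron genes 9 kept a peak in all 4 Tbr2-negative TSA libraries and none had one in any Tbr2-positive TSA library. The widest of all 712 regions, chr6:6854230-6857690 (3461 bp), lay 5644 bp from Dlx6, with −log10 q of 6.58, 13.8, 12.96 and 15.3 in vehicle and 10.5, 9.24, 6.92 and 5.54 under TSA, and Dlx6 had 3 more regions, 1853 to 12321 bp away. RNA of Dlx6 stood at 12.2, 10.8 and 9.39 CPM in the negative and 0.674, 1.89 and 0.748 CPM in the positive vehicle libraries, a log2 fold change of 3.28 ± 0.46 (SE, edgeR adjusted p = 0.000256). Gad1 stood at 133, 161 and 136 CPM in the negative and 15.5, 36.0 and 14.3 CPM in the positive vehicle libraries (log2 fold change 2.71 ± 0.29). Its regions, chr2:70558347-70558945 and another beside it, lay 2358 and 3041 bp from the gene and kept a peak in 4 and 1 of the 4 Tbr2-negative TSA libraries. The groups did not overlap for either gene.

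Dlx1 had 2 regions, at 2233 and 3418 bp, both with a peak in 4 of 4 Tbr2-negative TSA libraries, and its RNA stood at 133, 104 and 105 against 18.4, 44.4 and 17.1 CPM (log2 fold change 2.099 ± 0.30). Lhx6 had 2 regions inside the gene, both likewise kept, and stood at 78.4, 71.7 and 67.0 against 13.6, 21.0 and 9.50 CPM (2.30 ± 0.27). Gad2, Sp9, Nxph1 and Lhx8 were higher by 2.17, 2.26, 2.35 and 2.22 on the log2 scale. Positive library 2 was the highest of the 3 positive vehicle libraries for Gad1, Dlx1, Dlx6, Lhx6, Gad2, Sp9 and Nxph1. The regions of Lhx8 and Nkx2-1 kept a peak in 0 and 1 of 4 Tbr2-negative TSA libraries. Nkx2-1 stood at 1.31, 2.39 and 2.41 against 0.21, 0.989 and 0 CPM (adjusted p = 0.141), and Nr2f2, whose region lay 358792 bp away, at 53.9, 76.1 and 74.0 against 88.9, 65.4 and 89.8 CPM (adjusted p = 0.359). The RNA kit does not keep the strand, so the values of Dlx1, Dlx6 and Six3, which have antisense neighbours, are less certain.

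Genes of cortical excitatory neurons had several regions each. Of 14 deep-layer genes Bcl11b, Tle4 and Sox5 were nearest 10 regions, and of 14 upper-layer genes 3 were nearest 7, Mef2c and Kitl among them, and RNA of all 6 was higher in Tbr2-negative vehicle libraries. Tbr2-positive-only regions also had 3 nearest genes in each of these lists, Sox5 and Mef2c among them. Over the lists as wholes 9 of 14 deep-layer genes were higher and 3 lower, and 9 of 14 upper-layer genes higher and 4 lower. The summed deep-layer RNA went the other way, at 3198 to 3986 CPM in the negative and 5489 to 7270 CPM in the positive vehicle libraries, while the summed upper-layer RNA stood at 2441 to 3145 and 1666 to 2416 CPM.

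Mef2c, a MADS-box transcription factor, held 4 regions in its body, of which chr13:83528746-83530988 (2243 bp) had −log10 q of 10.2, 13.04, 11.96 and 11.3 in vehicle and 7.57, 10.2, 9.85 and 8.52 under TSA. Its RNA stood at 938, 1248 and 953 CPM in the negative and 206, 343 and 142 CPM in the positive vehicle libraries (log2 fold change 2.18 ± 0.28, edgeR adjusted p = 0.000145). Kitl, the ligand of the Kit receptor, held 1 region and stood at 117, 173 and 140 against 37.1, 53.3 and 34.4 CPM (1.78 ± 0.19). In both genes the lowest negative library was above the highest positive one.

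Bcl11b (Ctip2), a zinc finger factor of neurons that project below the cortex, held 3 regions and stood at 162, 207 and 250 against 54.1, 82.8 and 89.1 CPM (log2 fold change 1.45 ± 0.21). Tle4, a Groucho corepressor of corticothalamic neurons, had 2 regions some 292 kb away, both kept under TSA, and stood at 164, 175 and 141 against 37.4, 50.2 and 38.3 CPM (1.93 ± 0.16). Sox5, a SOX factor that times the birth of deep-layer neurons, had the most regions of any gene, 5, all inside it and 4 of them side by side between positions 144195879 and 144202054 of chromosome 6. Its RNA stood at 270, 316 and 277 against 165, 203 and 195 CPM (0.62 ± 0.18, edgeR adjusted p = 0.0256). That call was lost without Tbr2-negative vehicle library 2 or 3 or without any single positive vehicle library (adjusted p = 0.056 to 0.114).

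Genes that most neurons share were also among the nearest genes, 7 of 21 for 8 regions. Of the 7, 5 were higher in Tbr2-negative vehicle libraries, as were 17 of the 21, with 1 of the 21 lower. Tbr2-positive-only regions had 2 nearest genes in this list, Rbfox1 and Ank3. Grin2b, a subunit of the NMDA receptor, stood at 292, 305 and 345 against 54.4, 72.0 and 38.2 CPM (log2 fold change 2.52 ± 0.22), and Nrxn3, a presynaptic adhesion molecule, at 358, 276 and 285 against 72.4, 94.8 and 53.1 CPM (2.06 ± 0.23). The RNA-binding proteins Rbfox1, Celf4 and Celf2 were higher by 1.30, 0.85 and 0.51 on the log2 scale. Map2, the dendritic microtubule protein, did not pass, at 703, 996 and 872 against 761, 809 and 761 CPM. Rbfox3 (NeuN), a splicing factor of maturing neurons, went the other way, at 56.3, 52.5 and 51.2 against 93.9, 84.0 and 124 CPM (−0.92 ± 0.18, edgeR adjusted p = 0.0024), while its region chr11:118569488-118570766 was the sixth strongest of the 712, with −log10 q of 25.2, 17.3, 12.96 and 16.4.

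**Figure D5:**
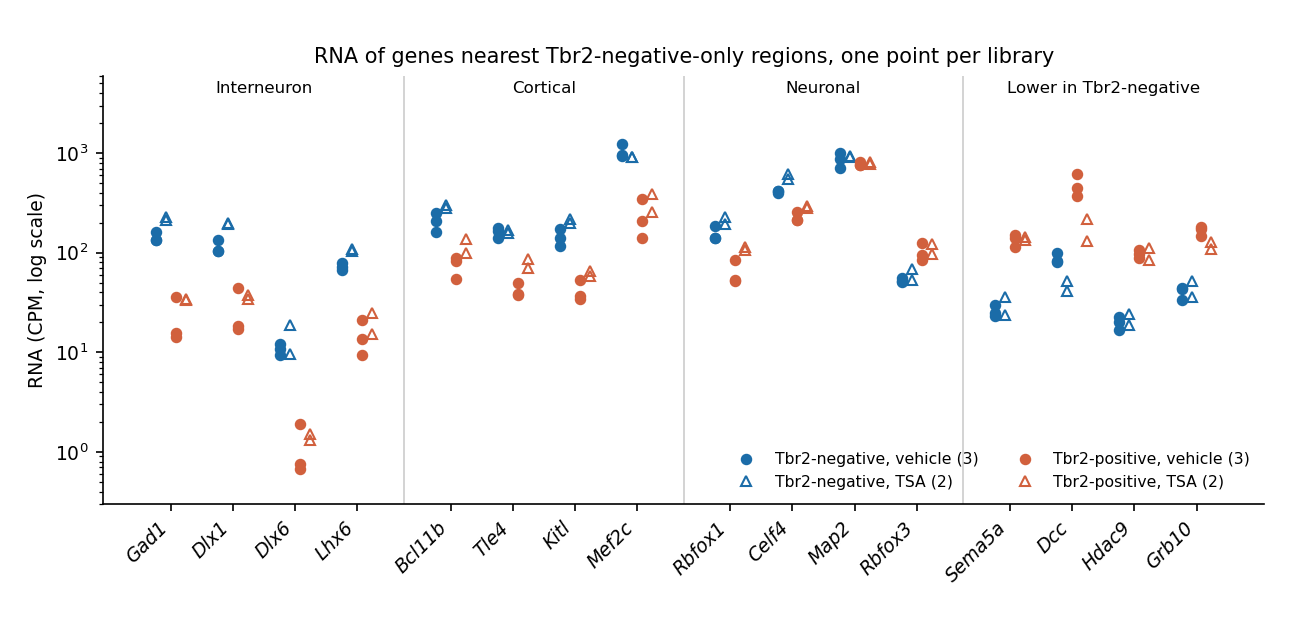
RNA in CPM (y axis, log scale) of 16 genes nearest Tbr2-negative-only regions, with 1 point per library, circles for vehicle, triangles for TSA, blue for Tbr2-negative and orange for Tbr2-positive. The blue points of the interneuron and cortical genes lie above the orange ones, those of Map2 overlap, and those of Rbfox3 and of the 4 genes on the right lie below.

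None of the 18 basal progenitor genes was a nearest gene, while 5 of them (Eomes, Btg2, Gadd45g, Elavl4 and Nhlh1) were nearest Tbr2-positive-only regions, and all 18 were lower in Tbr2-negative vehicle RNA. Of 21 radial glia genes Sox2 and Hes1 were nearest genes, and neither passed in vehicle. Tbr2-positive-only regions had 5 nearest genes in this list, and over the list as a whole 2 genes were higher and 7 lower. Sox2, which keeps neural stem cells undifferentiated, stood at 30.9, 23.5 and 26.4 against 26.6, 25.1 and 33.7 CPM, and Hes1 at 18.96, 9.10 and 8.37 against 3.58, 7.79 and 6.86 CPM (log2 fold change 1.0003 ± 0.38, edgeR adjusted p = 0.0778, and 0.0383 with DESeq2). Of 9 genes of oligodendrocyte precursors 2 had a region, and both were also nearest Tbr2-positive-only regions. Pdgfra, the receptor that defines these cells, was higher (17.4, 15.4 and 11.6 against 2.19, 2.06 and 4.84 CPM), and Bcas1, a marker of early myelinating cells, did not pass (0.676, 0.479 and 0.740 against 1.05, 2.101 and 1.98 CPM).

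Of 15 striatal and septal genes Foxp1, Meis1 and Six3 were nearest 5 regions, and 3 others were nearest Tbr2-positive-only regions. Foxp1, a forkhead factor shared by striatum and upper cortical layers, was higher at 110, 156 and 131 against 43.8, 62.9 and 51.0 CPM, and Meis1 did not pass. Six3, a homeobox factor of the ventral forebrain, had 3 regions and stood at 3.29, 2.71 and 5.18 against 0.337, 1.73 and 1.10 CPM (log2 fold change 1.82 ± 0.55, edgeR adjusted p = 0.0316), a call that was lost without any of 5 single libraries (adjusted p = 0.0508 to 0.118). Of the 14 microglial genes 1 was nearest a region, Ptprc, at 456101 bp and with at most 2.91 CPM in any library. None of the 10 Cajal-Retzius, 16 vascular and meningeal and 9 annotated erythroid genes was a nearest gene. Tbr2-positive-only regions had 2 Cajal-Retzius genes, 1 vascular and meningeal gene and Ptprc among their nearest genes.

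Of the 16 tested genes with 3 or more regions, list genes such as Sox5, Dlx6, Mef2c, Six3 and Bcl11b included, 9 were higher and 1 was lower. Grik3, a kainate receptor subunit, had 4 regions and stood at 100.9, 82.5 and 106 against 7.32, 16.1 and 2.86 CPM (log2 fold change 3.46 ± 0.44, edgeR adjusted p = 0.000147). None of the 4 regions had a peak in all 4 Tbr2-negative TSA libraries. Ackr3, a scavenging receptor of the chemokine Cxcl12 in migrating interneurons, had 3 and stood at 138, 95.9 and 103 against 18.9, 27.1 and 17.2 CPM (2.42 ± 0.21). Csrnp3, a nuclear protein of neurons, had 3 and stood at 215, 294 and 233 against 78.6, 94.4 and 76.5 CPM (1.57 ± 0.16). The regions of Shh, the ventralising morphogen, were 3 inside the gene, and its ends had a peak in 4 of 4 negative and 0 of 3 positive vehicle libraries. RNA of Shh was low, at 0.296, 0.585 and 1.06 against 0.168, 0.165 and 0.088 CPM (adjusted p = 0.174). Otud7a (a deubiquitinase), Sez6 (a dendritic membrane protein) and Srcin1 (a scaffold that restrains Src) had 3 regions each and did not pass, with adjusted p of 0.88, 0.917 and 0.0727.

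Of the nearest genes that passed with at least 2 CPM in a group and ranges that did not overlap, the 8 with the largest positive differences were Grm4, Grik3, Dlx6, Arpp21, Sema3f, Igfbp3, Nrg3 and Ecel1. Grm4, a metabotropic glutamate receptor, stood at 7.47, 3.83 and 8.05 against 0.0842, 0.412 and 0 CPM (log2 fold change 5.22 ± 0.87, edgeR adjusted p = 0.00093), while its region had no peak in any TSA library. Arpp21, a cAMP-regulated phosphoprotein, stood at 358, 508 and 454 against 44.2, 67.3 and 32.5 CPM (3.20 ± 0.29), and its region kept a peak in 4 of 4 Tbr2-negative TSA libraries. Sema3f, a secreted semaphorin, stood at 45.6, 38.0 and 56.0 against 6.10, 6.42 and 3.78 CPM (3.10 ± 0.26). Its region, with a lowest −log10 q of 1.16 in vehicle, kept a peak in 2 of 4 Tbr2-negative TSA libraries. Igfbp3, with the second strongest region, stood at 69.7, 52.2 and 103 against 8.46, 15.1 and 5.98 CPM (2.93 ± 0.33). Nrg3, a ligand of the receptor ErbB4, and Ecel1, a membrane peptidase, were both higher by 2.85 on the log2 scale, and their regions had a peak in 4 of 4 Tbr2-negative TSA libraries. Gabra5, with its inner start inside a region, stood at 26.9, 35.2 and 34.4 against 6.82, 14.7 and 4.88 CPM (1.87 ± 0.34), and Ppp2r2c at 41.8, 43.7 and 30.5 against 10.4, 13.4 and 10.2 CPM (1.77 ± 0.20), while Rapgef5 and Celf3 did not pass (adjusted p = 0.212 and 0.897).

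The 48 genes with lower RNA were the nearest genes of regions whose vehicle peaks were in the fraction where the RNA was lower. Sema5a, a transmembrane semaphorin, stood at 29.9, 23.2 and 24.6 CPM in the negative and 114, 142 and 149 CPM in the positive vehicle libraries (log2 fold change −2.38 ± 0.19, edgeR adjusted p = 7.8e-06), and its region, 70095 bp away, kept a peak in 4 of 4 Tbr2-negative TSA libraries. Dcc, the netrin receptor, stood at 81.9, 99.2 and 80.6 against 624, 373 and 446 CPM (−2.46 ± 0.23), and Hdac9, a class IIa histone deacetylase, at 22.7, 20.01 and 16.6 against 87.8, 106 and 97.7 CPM (−2.30 ± 0.19). Grb10, an imprinted adaptor that restrains insulin signalling, stood at 44.6, 33.7 and 43.2 against 172, 148 and 182 CPM (−2.04 ± 0.18), and Dmrta2, a factor of cortical progenitors, at 3.55, 2.93 and 3.10 against 13.3, 11.4 and 20.8 CPM (−2.25 ± 0.31). Adgrd1, an adhesion receptor, and Pipox, an oxidase of pipecolic acid, were lower by larger amounts (−4.43 ± 0.82 and −3.04 ± 0.53), at 0.127, 0.745 and 0.139 against 11.2, 3.67 and 6.64 CPM and at 7.56, 1.01 and 8.70 against 62.2, 45.8 and 35.5 CPM. Gramd3 was lower by −2.04 ± 0.62, a call that was lost without any of 4 single vehicle libraries (adjusted p = 0.0744 to 0.101). The regions of Dcc, Dmrta2 and Adgrd1 kept a peak in 2 of 4 Tbr2-negative TSA libraries, and that of Hdac9 in 1. Those of Pipox and Gramd3 kept it in 3 and 4, and of the 2 regions of Grb10 1 was kept in all 4. In vehicle the lowest −log10 q was 1.99 for Dcc, 2.08 for Hdac9 and 2.38 for Dmrta2.

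The RNA difference between the fractions was also measured in the TSA libraries. Of the 543 genes 110 (20.3%) were higher and 28 (5.16%) lower in the Tbr2-negative TSA libraries, against 5.13% and 4.19% of all genes tested, with a median log2 fold change of 0.40 against 0.02 over all genes. The vehicle and TSA comparisons use different libraries. The 110 included 100 of the 187 genes higher in vehicle (53.5% of the 187 and 90.9% of the 110), and the 28 included 25 of the 48 lower ones (52.1% and 89.3%). Of the 187 genes 185 had the same sign under TSA, the exceptions being Adgrl2 (−0.03) and Stim2 (−0.05), and of the 48 all did. Gad1 stood at 212 and 228 CPM in the negative and 34.2 and 33.4 CPM in the positive TSA libraries (log2 fold change 2.70 ± 0.36), and Mef2c at 915 and 920 against 393 and 257 CPM (1.499 ± 0.34). With 2 libraries per group the counts rested on single ones: 51 genes were higher without Tbr2-negative TSA library 1, 55 without Tbr2-negative TSA library 2 and 54 without Tbr2-positive TSA library 1, and 9, 13 and 11 were lower without Tbr2-negative TSA library 1 or 2 or Tbr2-positive TSA library 2.

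The calls of a TSA effect on RNA depended on the tool and the filter. In the Tbr2-negative fraction 4 of 543 (0.737%) rose and 2 (0.368%) fell with TSA, against 0.817% and 0.359% of all genes tested, shares near the background. With DESeq2 the counts were 25 higher and 25 lower (1089 and 981 over all genes), and with no filter on low counts 16 and 9 (612 and 332). The median log2 fold change was 0.00 against −0.08 over all genes, and an unadjusted p below 0.05 was found for 101 of the 543 and for 4037 of all 20078 genes. Sox2 stood at 30.9, 23.5 and 26.4 CPM in vehicle and 57.6 and 55.3 CPM under TSA (1.07 ± 0.20, edgeR adjusted p = 0.0481). Rpl38, a ribosomal protein with many near-identical copies and so of uncertain count, stood at 53.5, 77.7 and 63.9 CPM in vehicle and 178 and 140 CPM under TSA, Gng2, a G protein subunit, at 286, 465 and 374 against 814 and 739 CPM, and Cntnap2, a neurexin-like adhesion protein, at 77.0, 87.3 and 72.3 against 168 and 128 CPM. Gipr, the receptor of an incretin hormone, stood at 56.3, 53.2 and 57.7 CPM in vehicle and 18.99 and 23.0 CPM under TSA (−1.41 ± 0.25), and Atf7, a stress-responsive bZIP factor, at 43.9, 37.7 and 43.9 against 22.0 and 25.1 CPM (−0.83 ± 0.18). All 6 adjusted p-values lay between 0.0481 and 0.0482, and no call was kept without Tbr2-negative TSA library 1 or 2, Tbr2-negative vehicle library 1 or 3, or Tbr2-positive vehicle library 2 (adjusted p = 0.0506 to 0.513). With the replicate number as a block none of the 6 passed (adjusted p = 0.065 to 0.0696).

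In the Tbr2-positive fraction 0 of the 543 genes passed in edgeR in either direction, as did 0 of 20078 genes (0% of all). Unadjusted p was below 0.05 for 94 of the 543 and for 3175 of all 20078 genes, and DESeq2 called 24 higher and 10 lower (557 and 503 over all genes). The effect of TSA differed between the fractions for 0 of the 543 genes in edgeR (0% of all genes tested, smallest adjusted p among the 543 = 0.895), with an unadjusted p below 0.05 for 40 of them and for 1103 of all 20078 genes. This does not show that the effects were alike. Sox2 had the same direction in the positive fraction with 26.6, 25.1 and 33.7 CPM in vehicle and 28.9 and 36.3 CPM under TSA (0.20 ± 0.21), and its difference between the fractions was 0.87 ± 0.29 (adjusted p = 0.895).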

How the data were processed

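H3K9ac ChIP-seq and RNA-seq libraries were grouped by their titles. The peak lists, deposited by the authors, were called with MACS 2.1.0.20140616 at a q value threshold of 0.1, with 1 input per group, per the file headers. They give a pileup signal, −log10 p, −log10 q values and a fold ratio over the local background, all deposited by the authors. Peak positions were used, with −log10 q to order the peaks of a library or to set a limit on them; pileup and fold of lists called one by one have no common scale. The RNA files, also deposited by the authors, list unscaled counts for each Ensembl identifier. The build is mm10 and SAMtools is named, per the submitters' processing notes, and no aligner or counter is given in the sources used here. The 4 input samples were not analysed here.

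Vehicle peaks on chromosomes 1 to 19, X and Y were merged with Python 3.11.15 (pandas 2.3.3). Gene ends, names and promoter sequences came from RefSeq GRCm38.p6. RNA was fitted with edgeR 4.0.16 in R 4.3.3 (filterByExpr, TMM, quasi-likelihood model with robust dispersion over the 10 libraries, each group with its own mean, Benjamini-Hochberg adjustment over 20078 of 48709 identifiers, of which 48349 had a symbol). SE is the log2 fold change over the root of F, and CPM uses TMM library sizes. The code was tested on simulated data. DESeq2 1.42.0, RLE scaling, no filter on low counts, the replicate number as a block, other region rules and leaving out each library were tried.

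Genes were named when among the 12 with the most regions, the 8 largest vehicle changes in each direction (adjusted p below 0.05, at least 2 CPM in a group, ranges that do not overlap), up to 4 per marker list, or up to 4 TSA changes in each direction. Others are named with the region or list they belong to and were chosen after their values were seen. The regions and the 12 lists were chosen with earlier results of these data known. Sequences of the regions themselves were not read, as no genome of this build was used here, and 1 gene that the naming rule selects is not reported here.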

Additional observations from a re-analysis of the deposited data

Results flagged for a closer look

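Among the 4 Tbr2-negative TSA H3K9ac libraries, library 4 stood apart from the other 3 in 2 measures. It held 15173175 tags, against 22199383 to 23073573 in the others, and 88.5% of the regions with a peak in all 7 vehicle libraries had a peak in it, against 95.2% to 95.8%. In both its gap to the nearest library exceeded the 95% limit for a group of 4, which chance alone passes in about 1 of 20 groups. The share of Tbr2-negative-only regions was also lowest there (53.2%), and without this library the mean share over the Tbr2-negative TSA libraries was 72.7% in place of 67.8%. The part of depth in these shares was not tested.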

How the results depend on the processing

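The number of Tbr2-negative-only regions was 523 beyond 5 kb, 712 with −log10 q of at least 2 (662 of the original regions overlapped), 662 with equal numbers of peaks per library (518 of the original regions overlapped) and 587 with intervals within 500 bases merged (446 overlapped). Leaving out a vehicle library loosens the rule and gave 929 to 1353. The mean share with a TSA peak in Tbr2-negative libraries fell to 37.5% with 50% cover and to 32.7% with equal numbers of TSA peaks, and in Tbr2-positive libraries to 1.02% with 50% cover. Leaving out a TSA library gave 65.4% to 72.7% and 2.67% to 3.89%. The counts of nearest genes higher and lower in vehicle stayed within 1.5 times under every alternative run (155 to 193 and 37 to 50 when a library was left out), and in TSA under every alternative other than leaving out a library (51 to 113 and 9 to 29). Counts of TSA effects moved most. In Tbr2-negative nuclei 25 genes were higher and 25 lower with DESeq2, 16 and 9 with no filter on low counts, 0 and 1 with the replicate block, and 0 to 14 and 0 to 5 when a library was left out. In Tbr2-positive nuclei they were 24 and 10 with DESeq2, 10 and 3 with no filter, and 0 to 0 and 0 to 1 when a library was left out. The block ended the calls of Sox2, Gipr, Gng2, Rpl38, Cntnap2 and Atf7 under TSA, and that of Atf7 in vehicle. Deviations from the group mean of same-numbered vehicle RNA libraries had correlations of 0.099, 0.081 and 0.099, all below 0.1. With 2 TSA libraries per fraction the deviations are mirror images. The 0.117 of both same-numbered TSA pairs and the −0.117 of the crossed pairs are therefore 1 value with its sign turned. As the labels tie no number to an animal or day and not every pair passed 0.1, the libraries were taken to share a number only. Every vehicle library correlated best with the library of its own number, a hint from the data and not from the design. Of genes that did not pass in vehicle, the log2 fold change took the other sign without single libraries, with ranges over the libraries left out of −0.63 to 0.065 for Otud7a, −0.24 to 0.074 for Sez6, −0.20 to 0.049 for Sox2 and −0.33 to 7.73 for Ptprc. Srcin1 passed without positive library 1 (0.59, adjusted p = 0.045). The cause was not tested. Absence of a peak does not show absence of the mark, since it depends on tags, input and threshold.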
